A study of Mus musculus with 33 samples.

Results

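The transcripts of 5 genes, Rad51ap2, C7, Fap, Pparg and Rpe65, were followed in the frontal cortex of 33 mice, out of 21565 genes in the table. They were chosen on measured values. Among called genes whose WT libraries do not overlap between CS and SD, Rad51ap2, C7 and Fap had the 3 largest falls of 1282 ranked genes. Pparg and Rpe65 had the 2 largest falls of 199 ranked genes from CS to RS. The WT values of the 5 genes are therefore a description of the selection, and their differences between groups are tested only in Mef2cf/f and Mef2cCKO mice, which took no part in it. Tests in WT mice are given for other genes alone.

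All mice were adult males on a C57BL/6J background, and 1 library of polyadenylated RNA was sequenced per sample at ZT6. WT mice slept ad libitum (CS, n = 6), were kept awake for 6 hr on a slowly moving treadmill (SD, n = 7), or were deprived for 4 hr and then allowed 2 hr of recovery sleep (RS, n = 7). Mef2cf/f mice (CS, n = 4, and SD, n = 3) carry loxP sites around 1 coding exon of Mef2c, a neuronal transcription factor gene, and are the controls of Mef2cCKO mice (CS, n = 3, and SD, n = 3), which carry the same floxed alleles and Camk2a-Cre. All groups had been accustomed to the treadmill cage and were in constant darkness on the experimental day. The Cre line acts in CaMKII-expressing cells, but the study's methods also report that some Mef2cCKO mice had lost 1 allele of Mef2c in the germline, and thus in every cell. In bulk tissue, fewer cells of a type and less RNA per cell cannot be told apart.

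The 5 genes have unrelated textbook roles. Rad51ap2 encodes a protein of homologous recombination, the repair of DNA from a matching strand, and is best known from meiosis. C7 encodes a component of the membrane attack complex of complement, which assembles on cell surfaces after C5 is cleaved. Fap encodes fibroblast activation protein, a membrane serine protease of the dipeptidyl peptidase family. Pparg encodes the nuclear receptor PPARγ, which binds DNA with an RXR partner and is the master regulator of fat cells. Rpe65 encodes the isomerohydrolase of the visual cycle, known from the retinal pigment epithelium. None is a classical cortical marker.

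Since the genes were picked for a shared direction, the sequence before their starts is shown. RefSeq (GRCm38.p6) gave windows for 4 of the 5 genes, 6 windows in all, since Pparg has several starts. No window for Fap was used. Each window below holds the 250 bases before a start, 5′ to 3′ on the strand of the gene. For Pparg only the window that overlaps no annotated exon is printed. Capitals mark matches, on either strand, to 4 promoter elements. The TATA element was searched as TATAAA. The CCAAT box was searched as the letters of its name. The GC box was searched as GGGCGG, and the D-box, of which no match overlaps another element, as TTATGNAA.
Rad51ap2, chr12:11455805-11456054, plus strand: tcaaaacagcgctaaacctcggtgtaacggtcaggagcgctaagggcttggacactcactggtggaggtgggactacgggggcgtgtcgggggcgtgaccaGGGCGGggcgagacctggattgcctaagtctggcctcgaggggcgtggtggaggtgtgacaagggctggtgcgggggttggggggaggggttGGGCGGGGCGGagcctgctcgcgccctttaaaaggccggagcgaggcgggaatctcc
C7, chr15:5063774-5064023, minus strand: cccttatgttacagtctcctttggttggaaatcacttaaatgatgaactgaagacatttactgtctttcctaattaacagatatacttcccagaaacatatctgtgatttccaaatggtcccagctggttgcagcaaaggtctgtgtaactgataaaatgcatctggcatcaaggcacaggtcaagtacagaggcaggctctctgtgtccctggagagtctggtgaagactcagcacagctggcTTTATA
Pparg, chr6:115421816-115422065, plus strand: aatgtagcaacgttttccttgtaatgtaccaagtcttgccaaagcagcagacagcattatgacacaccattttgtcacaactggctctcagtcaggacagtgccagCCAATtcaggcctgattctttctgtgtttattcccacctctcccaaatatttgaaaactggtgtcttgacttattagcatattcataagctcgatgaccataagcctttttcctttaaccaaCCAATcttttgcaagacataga
Rpe65, chr3:159598931-159599180, plus strand: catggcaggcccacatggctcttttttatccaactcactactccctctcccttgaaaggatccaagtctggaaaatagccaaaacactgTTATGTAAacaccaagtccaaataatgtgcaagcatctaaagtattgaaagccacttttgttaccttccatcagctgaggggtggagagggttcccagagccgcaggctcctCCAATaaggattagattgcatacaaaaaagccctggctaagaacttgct

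The 4 printed windows share little. Rad51ap2 starts behind a GC-rich window (66.8% G or C) with 3 GC boxes, of which 2 share a base. The windows of C7 (43.2%), Rpe65 (45.2%) and this start of Pparg (40.8%) lay below the median of 52.4% over 32851 mouse promoters. The Pparg windows that are not printed lay above it, at 82.4% and 63.6%. The last 6 bases before the start of C7 read TATAAA on the reverse strand, the Pparg window has 2 CCAAT boxes, and the Rpe65 window has a CCAAT box and a D-box, the letters bound by clock output factors of the PAR bZIP family. Over all 6 windows, a TATA box was found in 2, a CCAAT box in 3, a GC box in 3 and a D-box in 1. These letters occur in 12.4%, 33.8%, 32.7% and 3.07% of all promoters of this length. An E-box (CACGTG, in 6.02% of promoters), a CRE (TGACGTCA, 1.55%), an AP-1 site (TGANTCA, 6.75%) and a MEF2 site (2.92%) were in none of the 6 windows, which says only that these letters are not there.

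Whole reads were recovered from the CPM, with 18935045 to 249046089 reads per library. Levels are CPM divided by a median-of-ratios factor of the library (rescaled CPM), and fold changes are limma estimates on log2(rescaled CPM + 0.5), a scale that understates changes of low genes. Genes were called where the adjusted p was 0.05 or less and the log2 fold change was 0.3 or more in size. The listed genes of a WT library summed to 925580 to 985958 CPM and in the 13 others to 1000000, so WT and the other genotypes were apparently tabulated apart, and genotype and tabulation cannot be told apart between them. One WT CS library, replicate 2, stood apart in its trend on transcript GC content, at -0.883 on the log2 scale per 10% GC against -0.351 to -0.0526 in the other 5. The Mef2cCKO CS library of replicate 8 had the highest summed microglia markers (419 rescaled CPM, against at most 208 in any WT CS library). The labelled tissue was checked by the summed excitatory neuron markers, which were at 1402 to 2114 rescaled CPM in the 33 libraries. The gene-level count of Mef2c was 1431 ± 415 in Mef2cCKO CS and 1147 ± 67.3 in Mef2cf/f CS (SD, n = 3 and 4). With 1 exon deleted in part of the cells, this count does not check the label.

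Rad51ap2 had the largest fall of the 5 genes after sleep deprivation. In WT CS its rescaled CPM ran from 5.80 through a median of 8.24 to 16.2, in SD from 1.48 through 2.59 to 3.57, and in RS from 2.38 through 3.82 to 9.06. The CS and SD libraries did not overlap, while RS reached into both. The level was 3.07-fold lower in SD than in CS (log2 fold change -1.62, SE 0.21) and the RS difference from CS was -0.89 (SE 0.26). The highest CS value, 16.2, came from replicate 2, and without that library the SD difference was -1.45.

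C7 lay between 2.77 and 4.52 rescaled CPM in WT CS, with a median of 3.10. In SD it lay between 0.761 and 1.34 with a median of 0.992, and in RS between 1.26 and 4.94 with a median of 2.40. Every SD library was below every CS library, and a single RS library, replicate 1 at 4.94, was above all CS libraries. The fitted value, with 0.5 added to the level, was 2.55-fold lower in SD than in CS (log2 fold change -1.35, SE 0.13). The mean levels themselves were 3.44 in CS and 1.04 in SD. RS differed from CS by -0.49 (SE 0.21) in the fit. These levels rest on 47 to 197 reads per SD library.

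Fap went from 12.2 through a median of 15.7 to 23.9 rescaled CPM in CS, and from 5.18 through 5.83 to 8.21 in SD. In RS it went from 4.18 through 11.1 to 14.3. CS and SD were again apart, and RS covered the whole SD range and the lower CS values. The fitted value was 2.52-fold lower in SD (log2 fold change -1.33, SE 0.15) and the RS difference was -0.75 (SE 0.24).

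Pparg was at 53.9, 64.6 and 81.3 rescaled CPM in CS (lowest, median and highest library), at 24.1, 31.1 and 44.2 in SD and at 20.9, 34.7 and 46.0 in RS. Here both SD and RS lay below every CS library and overlapped each other almost completely. The log2 fold change was -0.98 (SE 0.14, 1.97-fold lower) in SD and -0.96 (SE 0.18) in RS. Rpe65 had the same arrangement at a low count, with 2.43, 3.38 and 5.98 in CS, 1.17, 1.48 and 2.57 in SD and 0.865, 1.80 and 2.03 in RS. Its RS libraries were all below CS, while 1 SD library reached into the CS range. Its log2 fold changes were -0.91 (SE 0.18, 1.89-fold lower) in SD and -0.94 (SE 0.19) in RS.

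**Figure D1:**
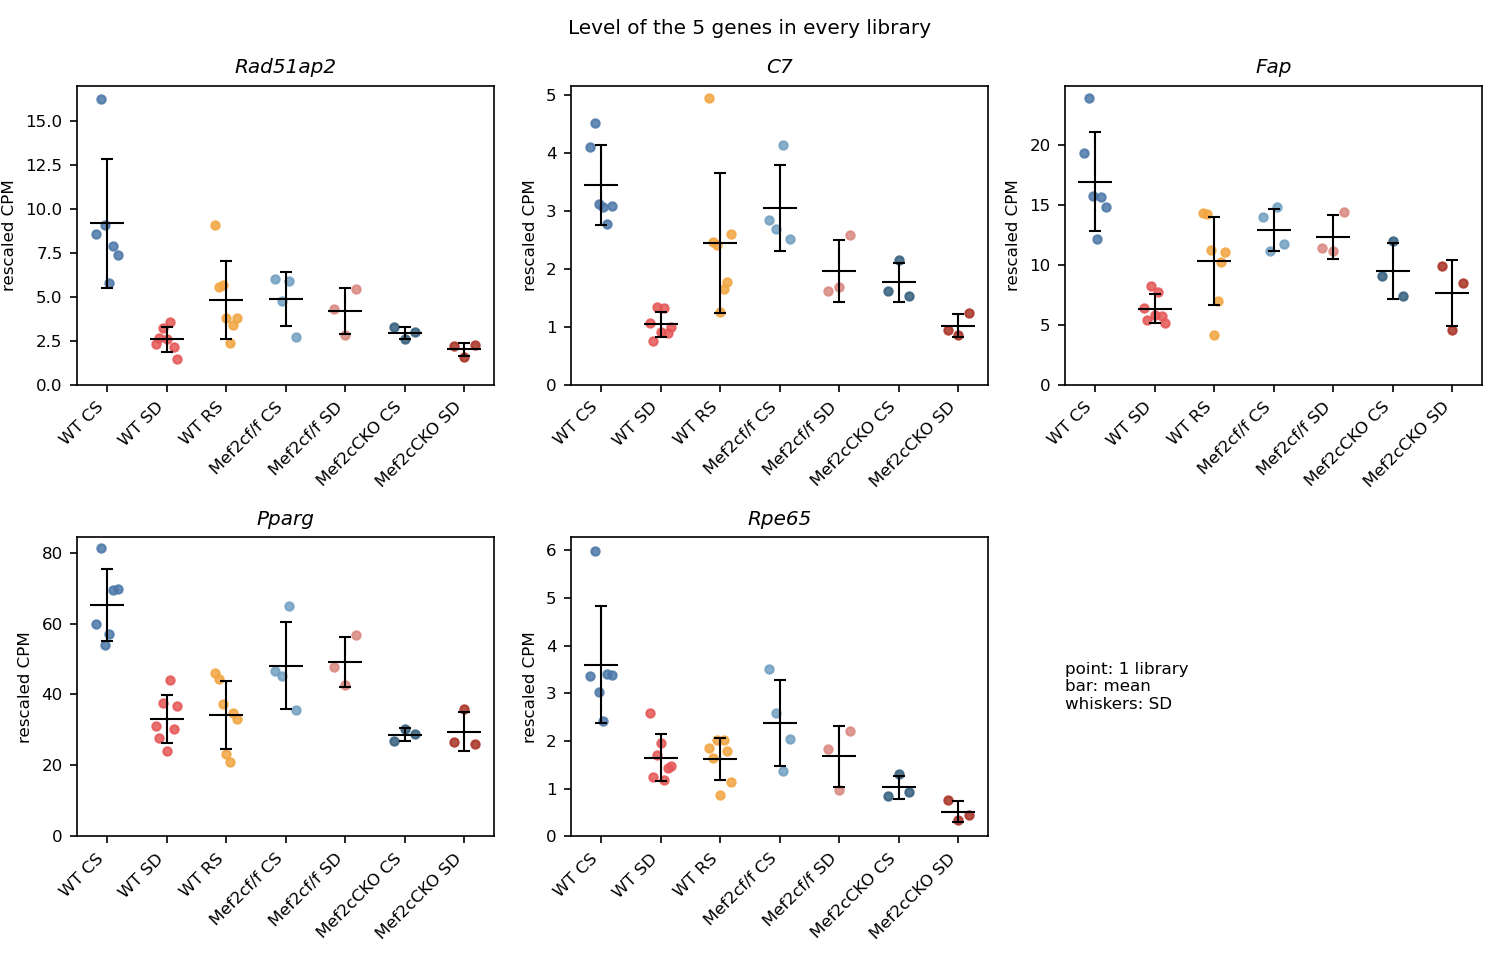
Rescaled CPM (vertical axes, from 0) of Rad51ap2, C7, Fap, Pparg and Rpe65 in each library (points) of the 7 groups, with group means and SD (bars). WT CS holds the highest mean of every gene, which the selection favours. Rad51ap2, C7 and Fap lie higher in WT RS than in WT SD, while Pparg and Rpe65 lie at similar levels in both.

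After recovery sleep the 5 genes fell into those whose RS level lay between CS and SD and those whose RS level lay at SD. The RS level exceeded the SD level by 0.73 on the log2 scale for Rad51ap2 (SE 0.22), 0.86 for C7 (SE 0.19) and 0.58 for Fap (SE 0.22), which is 44.9%, 63.4% and 43.8% of the log2 fall from CS to SD. For Pparg the difference was 0.02 (SE 0.18, 2.09% of the fall) and for Rpe65 it was -0.02 (SE 0.16). The separation follows from the choice of the genes, since the first 3 were taken from the SD ranking and the last 2 from the RS ranking. RS also held 4 hr rather than 6 hr of deprivation. Between RS and SD, 3 of 12921 genes were called in either direction (0.0232%; 683 at an unadjusted p of at most 0.05, edgeR 3, DESeq2 54).

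Beside the 5 genes, many others were called in WT mice. From CS to SD, 20.5% of 12913 genes were called lower and 24.6% higher, and from CS to RS 8.22% of 12752 were called lower and 9.28% higher. The 5 genes were all called lower in SD, and all but C7 in RS, as their selection requires for the genes of each ranking. Just outside the SD ranking's first 3 genes stood RP23-174M24.1 (-1.27) and Cdh12 (-1.21), next to Fap at -1.33. Behind Rpe65 in the RS ranking stood Kcnip4 (-0.92) and Efna5 (-0.86). With CPM as deposited the median of all genes in SD against CS moved from 0.04 to 0.30, the calls became 6106 higher and 801 lower in place of 3183 and 2643, and the 5 genes remained lower. In RS against CS the median moved from 0.02 to 0.20, with 2350 higher and 315 lower in place of 1184 and 1048. A choroid plexus marker was called lower as well. Ttr, the transthyretin gene of that tissue, was at 47.4 ± 62.5 rescaled CPM in CS and 4.29 ± 2.29 in SD (SD, n = 6 and 7, log2 fold change -2.67, limma adjusted p = 0.00424), and differed by -2.99 in RS (adjusted p = 0.0335). The other choroid plexus gene tested, Kl, was not called in either contrast. The 4 genes of this list summed to 11.5 to 189 rescaled CPM in CS, 5.69 to 12.2 in SD and 3.48 to 16.5 in RS, and their part in the falls was not tested.

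The WT differences moved with the length and base composition of genes. Across 12263 genes with an annotation, the SD difference had a Spearman rho of 0.720 with the GC content of the transcripts and of -0.556 with the span of the gene, as a description over genes that share the same libraries. Its median ran from 0.46 in genes under 5000 bases to -0.57 in genes over 300000 bases, and from -0.45 below 40% GC to 0.51 above 56%. Of the 50 genes with the highest mean CPM, 36 spanned over 300000 bases, against 4.26% of all genes tested. The feature on which the reads were counted (exons or whole genes) is not stated in the sources used here, and its part in these values was not tested.

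The 5 genes themselves are not alike in these properties. On GRCm38 (GENCODE M21), Rad51ap2 (ENSMUSG00000086022.1, chromosome 12, 11456079 to 11462928, plus strand) spans only 6850 bases, and its transcript GC content of 37.5% is at the percentile of 1.45 among all genes. C7 (ENSMUSG00000079105.4, chromosome 15, 4988762 to 5063740, minus strand) spans 74979 bases at 47.2% GC. Fap (ENSMUSG00000000392.17, chromosome 2, 62500943 to 62574075, minus strand) spans 73133 bases at 39.7% GC. Pparg (ENSMUSG00000000440.12, chromosome 6, 115360951 to 115490399, plus strand) is the longest with 129449 bases and has 50.2% GC. Rpe65 (ENSMUSG00000028174.12, chromosome 3, 159599175 to 159625321, plus strand) spans 26147 bases at 42.2% GC. Their coordinates cover the whole gene, exons and introns, and the reads were summed per gene. Each of the 5 lay below the 5th percentile of its span class and of its GC class in SD against CS, a position that the selection itself favours. With the trend on GC content, transcript length and span removed from each library, the SD differences were -1.34 for Rad51ap2, -1.16 for C7, -0.86 for Fap, -0.79 for Pparg and -0.66 for Rpe65.

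**Figure D2:**
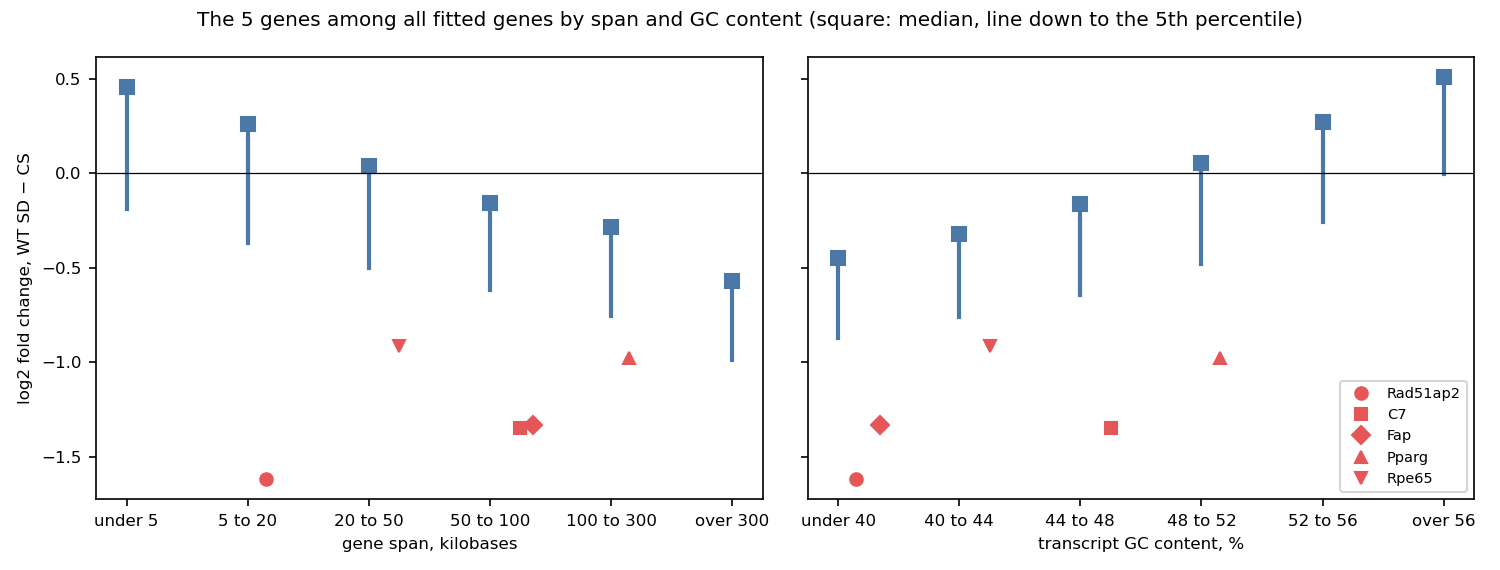
Log2 fold change of WT SD against CS (vertical axis) by gene span in kilobases (left) and transcript GC content in % (right), with the median of all genes of a class (square), a line down to its 5th percentile, and the 5 genes as symbols. Medians fall with span, from 0.46 to -0.57, and rise with GC content, from -0.45 to 0.51, and each of the 5 genes lies under the 5th percentile of its class.

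The neighbours of the 5 genes on the chromosome fell less, as the selection of the 5 genes favours, or were too low to fit. Over all genes, 20.5% were called lower in WT SD. Next to Rad51ap2, Vsnl1 changed by -0.53 in WT SD (limma, adjusted p = 0.0039) and Fam49a by -0.36 (adjusted p = 0.0114). Ifih1 beside Fap changed by -0.39 (adjusted p = 0.0263) and Wls beside Rpe65 by -0.52 (adjusted p = 0.00378). Syn2 before Pparg had a log2 fold change of -0.14 (limma adjusted p = 0.163). Mroh2b and Card6 at C7, Gcg at Fap and Depdc1a at Rpe65 did not pass the filter in this contrast. An antisense gene, Gm44079, overlaps Pparg, and a small nuclear RNA gene, Gm25652, lies within C7. Neither is in the table, and since the strand setting of the counting is not stated, reads of Pparg and of its antisense partner may not be separated.

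In Mef2cf/f mice, none of the 5 genes was called after the same 6 hr of deprivation. C7 had the lowest estimate. Its CS libraries read 2.85, 2.69, 4.13 and 2.51 rescaled CPM and its SD libraries 1.62, 1.68 and 2.58, so that 2 of the 3 SD libraries were below all of CS. The log2 fold change was -0.53 (95% interval -0.96 to -0.09, limma adjusted p = 0.223). Rpe65, at 3.52, 2.58, 1.38 and 2.05 in CS and 1.84, 0.977 and 2.21 in SD, differed by -0.40 (-1.02 to 0.23, adjusted p = 0.482). Rad51ap2, with 6.02, 4.76, 5.91 and 2.71 in CS and 4.29, 2.82 and 5.41 in SD, differed by -0.18 (-0.78 to 0.42, adjusted p = 0.751). In both genes the sleep states overlapped.

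Fap and Pparg showed the least difference in these mice. Fap was at 14.0, 11.2, 14.8 and 11.7 in CS and at 11.4, 11.1 and 14.4 in SD (log2 fold change -0.07, 95% interval -0.36 to 0.23, limma adjusted p = 0.816). Pparg was at 46.6, 45.1, 64.9 and 35.7 in CS and at 47.8, 42.8 and 56.8 in SD (0.05, -0.34 to 0.45, adjusted p = 0.893). The difference between WT and Mef2cf/f mice was not tested, since the WT values chose the genes and the tables were made apart. The background in this comparison was low, with 5 of 12410 genes called (0.0403%; 2111 at an unadjusted p of at most 0.05, edgeR 9, DESeq2 467), so a count of 0 among 5 is near it.

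Mef2cCKO mice likewise gave no call among the 4 genes that could be fitted. Of these, C7 passed the filter through its CS libraries alone, the group where it was higher, so its estimate is not independent of the filter. C7 read 1.62, 2.15 and 1.53 rescaled CPM in CS and 0.950, 0.860 and 1.24 in SD (log2 fold change -0.58, 95% interval -1.05 to -0.10, limma adjusted p = 0.998). Rad51ap2 read 3.29, 2.57 and 2.98 in CS and 2.21, 1.60 and 2.23 in SD (-0.46, -0.88 to -0.04, adjusted p = 0.998). Fap (9.06, 11.98 and 7.38 against 9.90, 4.57 and 8.50) and Pparg (26.9, 30.4 and 28.7 against 26.5, 35.8 and 26.1) had differences of -0.33 (-1.02 to 0.36) and 0.02 (-0.29 to 0.34). Rpe65, at 0.835, 1.30 and 0.935 in CS and 0.766, 0.338 and 0.442 in SD, did not pass the filter, and its 3 SD libraries hold 11 to 46 reads. In this contrast 3 of 12810 genes were called (0.0234%; 391 at an unadjusted p of at most 0.05, edgeR 3, DESeq2 25).

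The 2 responses to deprivation did not differ measurably for any of the 5 genes. The interaction, Mef2cCKO minus Mef2cf/f, was -0.28 for Rad51ap2, -0.05 for C7, -0.26 for Fap, -0.03 for Pparg and -0.20 for Rpe65, with limma adjusted p between 0.84 and 0.98. The intervals were wide, from -1.07 to 0.50 for Rad51ap2 and from -0.57 to 0.51 for Pparg. Over all genes the interaction was called in 1 of 12860 (0.00778%; 1005 at an unadjusted p of at most 0.05, edgeR 1, DESeq2 59).

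Under SD, Pparg and Rad51ap2, which passed the filter in both genotypes, were called lower in Mef2cCKO than in Mef2cf/f mice, where 5.99% of 12774 genes were called lower (9.1% higher). Pparg was 1.66-fold lower (log2 fold change -0.73, 95% interval -1.06 to -0.41, limma adjusted p = 0.0126), and Rad51ap2 was 1.82-fold lower (-0.87, -1.37 to -0.37, adjusted p = 0.0307). C7 (-0.68, -1.12 to -0.25, adjusted p = 0.0423) and Rpe65 (-1.08, -1.67 to -0.48, adjusted p = 0.0267) were called lower too. Both passed the filter through their Mef2cf/f libraries alone, the group where they were higher, so their calls are not independent of the filter. Without a filter their adjusted p was 0.0459 and 0.0353. Fap had an estimate of -0.71 (-1.27 to -0.14, adjusted p = 0.0835) and was not called. In all 5 genes each of the 3 Mef2cCKO libraries was below each of the 3 Mef2cf/f libraries, as in 18.7% of all genes tested.

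These calls rest on 3 libraries a group. Without Mef2cf/f replicate 1 or replicate 3 none of the 5 genes was called, without Mef2cCKO replicate 7 only Pparg was called, and without Mef2cCKO replicate 6 all 5 were called. The estimates remained below 0 in all these fits, from -0.63 to -0.88 for Pparg and from -0.89 to -1.33 for Rpe65. With CPM as deposited the same number, 4, was called, while the calls over all genes became 1694 higher and 492 lower in place of 1162 and 765.

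Under CS the same direction was seen with fewer calls. Pparg was 1.63-fold lower in Mef2cCKO mice (log2 fold change -0.70, 95% interval -1.10 to -0.31, limma adjusted p = 0.0424) and was the only one of the 5 to be called, where 4.5% of 12681 genes were called lower and 3.17% higher. Its call was lost without any one of 6 of the 7 libraries and kept without Mef2cf/f CS replicate 4 (adjusted p from 0.0253 to 0.107), and without that library Rad51ap2 was called as well. C7 (-0.64, adjusted p = 0.0839) and Rpe65 (-0.88, adjusted p = 0.0771) were not called, although their groups, like those of Pparg, did not overlap, as in 13.5% of all genes tested. Rad51ap2 (-0.59, adjusted p = 0.165) and Fap (-0.44, adjusted p = 0.135) overlapped between the genotypes. With CPM as deposited the median of all genes moved from 0.03 to 0.13 and the calls from 402 higher and 571 lower to 882 and 346. Rpe65 again passed the filter through Mef2cf/f libraries alone.

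**Figure D3:**
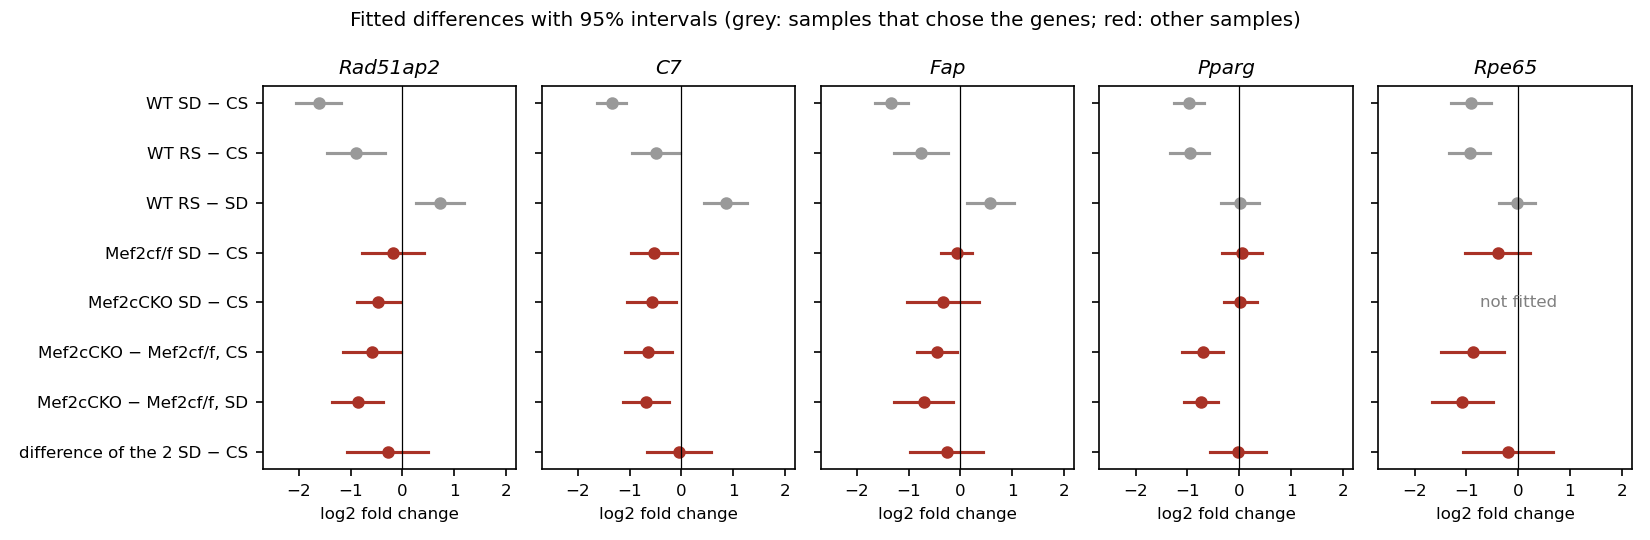
Fitted log2 fold changes (horizontal axes) with 95% intervals of the 5 genes, in grey for the WT contrasts that chose the genes and in red for the contrasts among Mef2cf/f and Mef2cCKO mice. The SD and CS differences between genotypes lie below 0 for all 5 genes, from -0.44 to -1.08, while SD against CS within Mef2cf/f mice runs from -0.53 to 0.05.

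Ordered by mean level over the 7 groups, all 5 genes were highest in WT CS, which their selection favours, and a Mef2cf/f group came next each time. WT and the other genotypes were apparently tabulated apart, so places across them rest on the rescaling. As deposited, C7 ran from 2.52 to 3.50 CPM in WT CS and from 2.59 to 4.07 in Mef2cf/f CS. For Rad51ap2 the means fell from 9.17 in WT CS through 4.85 in Mef2cf/f CS, 4.81 in WT RS, 4.17 in Mef2cf/f SD, 2.95 in Mef2cCKO CS and 2.57 in WT SD to 2.01 in Mef2cCKO SD. C7 had the same order, from 3.44 to 1.02. Fap ended with WT SD at 6.36, below Mef2cCKO SD at 7.66. Pparg ended with Mef2cCKO CS at 28.7 and Mef2cCKO SD at 29.4, under WT SD at 33.1. Rpe65 was lowest in Mef2cCKO SD at 0.515. The ranges of nearly all neighbours in these orders overlapped, the exceptions being C7 between Mef2cCKO CS and WT SD and Rpe65 between the Mef2cCKO groups.

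Within groups, the deviations of the genes from library to library are given as a description over 33 libraries, since 20 of these are the WT libraries that chose the genes. With group means subtracted, C7 and Fap had the closest relation (Pearson r = 0.783, Spearman rho = 0.804, and r = 0.733 without the 2 libraries farthest out). Rad51ap2 followed C7 (r = 0.698, rho = 0.668), Fap (0.644, 0.726) and Pparg (0.612, 0.504), and C7 and Fap followed Pparg (0.694, 0.623 and 0.584, 0.524). Rpe65 had lower values with Fap (0.475, 0.436) and, as r, with Rad51ap2 (0.354), C7 (0.247) and Pparg (0.109). In the 13 libraries that are not WT, none of the 10 pairs passed a permutation test adjusted over 15 relations. There C7 and Fap had r = 0.647 (adjusted permutation p = 0.0844) and Fap and Pparg -0.0126 (adjusted permutation p = 0.991).

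The same deviations were set against the GC trend of the library, a slope over all genes of the log2 level on transcript GC content, again as a description over all 33. Rad51ap2 had r = -0.824 (rho = -0.829), C7 -0.603 (-0.690), Fap -0.596 (-0.695), Pparg -0.533 (-0.498) and Rpe65 -0.480 (-0.419). Without the 2 farthest libraries r ran from -0.775 for Rad51ap2 to -0.289 for Rpe65. In the 13 libraries that are not WT, Rad51ap2 had r = -0.816 (adjusted permutation p = 0.0844), the others ran from -0.233 to -0.515, and none of the 5 passed. With the trend on GC content and length removed, the median r of the 10 pairs of genes over 33 libraries went from 0.598 to 0.455, and to 0.362 with span removed as well. The trend itself differed between WT groups, with medians of -0.222 in CS, 0.210 in SD and 0.121 in RS on the log2 scale per 10% GC, and its part in the falls was not tested.

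**Figure D4:**
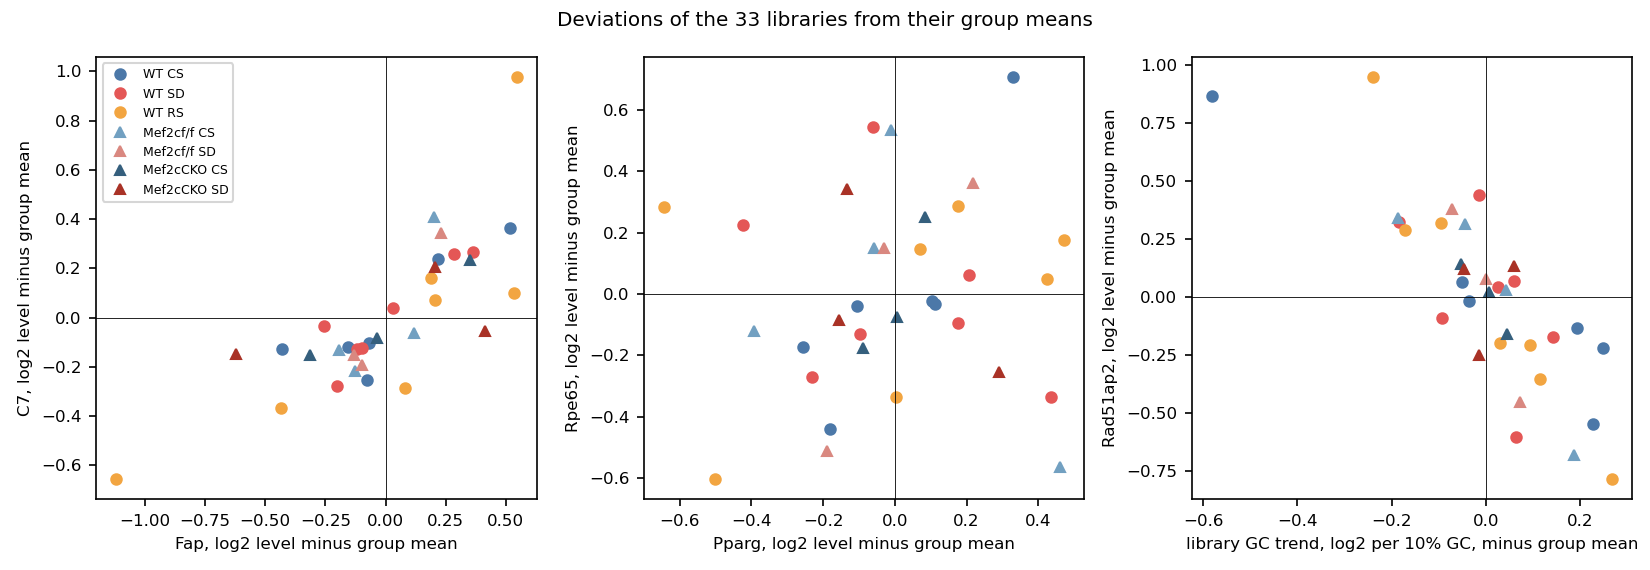
Deviations of the 33 libraries from their group means, on the log2 scale, for C7 against Fap (left), Rpe65 against Pparg (middle) and Rad51ap2 against the GC trend of the library (right), with circles for WT and triangles for the other genotypes. The points follow a line on the left (r = 0.783) and on the right (r = -0.824), and form no line in the middle (r = 0.109).

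Among genes that reach a CPM of 1 throughout the 33 libraries, the closest companions of Rad51ap2 were Lrif1 (r = 0.945), Atr (0.918) and Cep85l (0.911). C7 deviated most like Cdh18 (0.889), Agbl1 (0.887) and Grm3 (0.866), and Fap like Sytl2 (0.916), Fmn1 (0.914) and Mlip (0.909). Pparg had lower likenesses, to Nhlrc2 (0.835), Psme4 (0.828) and Eml4 (0.823). Rpe65 had the lowest, to Gatm (0.693), Mpv17l (0.690) and Rab6a (0.685). These are correlations of 33 libraries after group means were subtracted, given as a description. The GC trend above varied between libraries within groups, and its part in these likenesses was not tested. In the SD comparison of genotypes Grm3, Sytl2 and Mlip were called lower in Mef2cCKO mice (-0.38, -0.75 and -0.997, limma adjusted p = 0.03, 0.0215 and 0.00513).

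Of 13 other genes of homologous recombination tested in WT SD, 4 were called lower and none higher, beside 20.5% and 24.6% of all genes. Those lower were Brca2, a tumour suppressor gene of this pathway (-0.72, limma adjusted p = 0.00436), Sfr1 (-0.49, 0.0356), Rad52 (-0.44, 0.0317) and Rad54b (-0.31, 0.037). The median of the list was -0.22, beside 0.04 over all genes. With CPM as deposited the split turned to 3 higher and 1 lower. In Mef2cCKO against Mef2cf/f SD, Rad51b (0.95, adjusted p = 0.00747) and Bard1 (0.64, adjusted p = 0.0496) were called higher of 15 tested and none lower, beside 9.1% and 5.99% of all genes. Both passed the filter through their Mef2cCKO libraries alone, the group where they were higher. Their calls are thus not independent of the filter.

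Of the other complement genes, 2 of 3 tested in the terminal pathway and its inhibitors and 2 of 10 tested upstream were called higher in WT SD, beside 24.6% of all genes, and none lower. The other terminal components did not pass the filter, with C6 at 0.256 ± 0.520 and C9 at 0.602 ± 1.46 rescaled CPM in WT CS (SD, n = 6) and at 0.0547 ± 0.0290 and 0.0176 ± 0.0112 in SD (n = 7). In the terminal list, Clu (0.36, limma adjusted p = 0.0103) and Vtn (0.33, adjusted p = 0.0408) were called higher, both being soluble inhibitors of the complex. Upstream, they were C4b (1.18, adjusted p = 0.00169), which rose from 6.29 ± 3.08 to 13.7 ± 1.22 (SD, n = 6 and 7), and C1qc (0.83, adjusted p = 0.0254). In Mef2cCKO against Mef2cf/f SD, 4 of 10 tested upstream were called higher and 1 lower, beside 9.1% and 5.99% of all genes. C4b was higher by 1.60 (adjusted p = 0.000609) together with C1qa, C1qb and C1qc, and C1ra was lower by 1.30 on the log2 scale. C1ra passed the filter through its Mef2cf/f libraries alone, the group where it was higher, so its call is not independent of the filter. The microglia markers of the 3 Mef2cCKO SD libraries summed to 181 to 196 rescaled CPM against 144 to 151 in Mef2cf/f SD, and their part in the C1q values was not tested.

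Among the relatives of Fap, Dpp10, an auxiliary subunit of neuronal potassium channels without peptidase activity, was lower in each comparison in which any of them was called lower. It went from 1212 ± 218 in WT CS to 644 ± 97.8 rescaled CPM in SD (SD, n = 6 and 7; -0.91, limma adjusted p = 0.000441), and was lower in Mef2cCKO than in Mef2cf/f mice under CS (-0.64, adjusted p = 0.0395) and SD (-0.54, adjusted p = 0.0266). Dpp7 (0.58) and Dpp9 (0.43) were called higher in WT SD, so the 8 genes of the list split into 2 higher and 1 lower. Over all genes, 24.6% were called higher and 20.5% lower. Dpp4, the closest relative of Fap, had an estimate of -0.30 (adjusted p = 0.188). Fap is also known from fibroblasts. Of 10 meningeal fibroblast markers tested, 5 were called higher in WT SD and none lower, beside the same shares of all genes (median 1.23, and 0.04 over all genes). Col1a1, a fibrillar collagen chain, rose by 2.34 (adjusted p = 0.000626) and the transporter gene Slc22a6 by 1.74 (adjusted p = 0.00157). Slc22a6 passed the filter through its SD libraries alone, the group where it was higher, so its call is not independent of the filter. The summed level of the markers was 45.6 to 129 rescaled CPM in WT CS and 123 to 153 in SD, and their part in the Fap values was not tested. The list also holds Igf2, which was listed at 0 in every WT CS and RS library and averaged 23.8 to 38.2 in the groups of the other genotypes.

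Among the partners of PPARγ, calls in WT SD went both ways, beside 24.6% of all genes called higher and 20.5% lower. Of 12 receptors, partners and coregulators, 5 were called higher in WT SD, among them the RXR genes Rxrb (0.90, limma adjusted p = 0.0248), Rxra (0.73, adjusted p = 0.00264) and Rxrg (0.63, adjusted p = 0.0405), and the related receptor Ppard (0.45, adjusted p = 0.0422). The 3 called lower included the coactivator Ppargc1a (-0.55, adjusted p = 0.00988), and with CPM as deposited 6 were higher and none lower. Of 11 target genes, 3 were called higher and none lower, beside the same shares of all genes. The lipid droplet gene Plin4 went from 1.17 ± 0.217 to 6.38 ± 2.04 rescaled CPM (SD, n = 6 and 7; 2.00, adjusted p = 7.78e-05), Ucp2 changed by 0.83 (adjusted p = 0.00519) and Angptl4 by 0.74 (adjusted p = 0.00142). Plin4 and Angptl4 passed the filter through their SD libraries alone, the group where they were higher. Their calls are thus not independent of the filter. In Mef2cCKO against Mef2cf/f SD, where Pparg was lower, 9.1% of all genes were called higher. Of these lists, Rxrg (1.22, limma adjusted p = 0.0322), Ucp2 (0.99, adjusted p = 0.0369) and Plin2 (0.76, adjusted p = 0.0221) were called higher there. All 5 adipocyte markers were under 1 CPM in every library, and their sum was at most 0.443.

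For Rpe65, the other genes of the visual cycle and of retinoid handling were called higher or not at all. In WT SD 4 of 12 were higher, beside 24.6% of all genes. Among them were Aldh1a2, a retinoic acid synthase (1.52, limma adjusted p = 0.00761), the retinol receptor gene Stra6 (0.96, adjusted p = 0.000606), and the retinoid binding protein gene Rlbp1 (0.49, adjusted p = 0.0118). Stra6 passed the filter through its SD libraries alone, the group where it was higher, so its call is not independent of the filter. In Mef2cCKO against Mef2cf/f SD 5 of 13 genes of the list were higher, beside 9.1% of all genes, Aldh1a2 by 1.24 and Stra6 by 0.82 among them. Aldh1a2 is also on the meningeal list, and its share of that signal was not tested. Lrat, which makes the substrate of RPE65, stood at 0.135 ± 0.0612 rescaled CPM in WT CS (SD, n = 6).

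Markers of the cells that Rpe65 and Rad51ap2 are known from were read as well. Of 6 retinal pigment epithelium markers 2 were tested in WT SD, of which Rlbp1 was called higher and Mitf, a transcription factor gene at 61.3 rescaled CPM in WT CS, lower (-0.52, limma adjusted p = 0.00584, and -0.52 in RS, adjusted p = 0.0329). The 6 summed to 62.2 to 74.4 in CS, 45.3 to 64.8 in SD and 46.8 to 63.8 in RS, and Rgr was under 1 CPM in every library. Of 5 germ cell markers 2 were tested in WT SD, Ddx4 (-0.60, adjusted p = 0.00434) and Dazl (-0.50, adjusted p = 0.0401), and both were called lower, beside 20.5% of all genes. The 5 summed to 9.23 to 22.7 in CS, 7.63 to 10.3 in SD and 7.62 to 12.3 in RS, with Sycp1 and Spo11 under 1 CPM throughout. The part of either list in the falls of Rpe65 and Rad51ap2 was not tested.

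In WT RS the pathway lists held fewer calls than in SD, as did all genes. Over all genes, 9.28% were called higher and 8.22% lower in RS, against 24.6% and 20.5% in SD. Among others, Plin4 (1.57, limma adjusted p = 0.0329), Ucp2 (0.70, adjusted p = 0.0351), Rxra (0.58, adjusted p = 0.037), Rxrg (0.69, adjusted p = 0.0426), Stra6 (1.03, adjusted p = 0.0329), C4b (0.92, adjusted p = 0.0347) and C1qc (0.81, adjusted p = 0.0478) were called higher, and Dpp10 lower (-0.68, adjusted p = 0.0335). None of the recombination or terminal complement genes was called there. Plin4 and Stra6 passed the filter of this contrast through their RS libraries alone, the group where they were higher. Their calls are thus not independent of the filter. The calls of this contrast rest on single libraries, since all 2232 were lost without WT CS replicate 3 or without WT RS replicate 3, 5, 6 or 12. Under CS, Mef2cCKO mice differed from Mef2cf/f mice in Dpp10 and the coactivator Ppargc1b (-0.62, adjusted p = 0.0162) on the lower side and in the fatty acid transporter Cd36 (0.84, adjusted p = 0.0382) on the higher side. Cd36 passed the filter through its Mef2cCKO libraries alone, the group where it was higher, so its call is not independent of the filter. Between RS and SD in WT, and between SD and CS in Mef2cf/f and Mef2cCKO mice, no gene of the pathway lists was called.

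**Figure D5:**
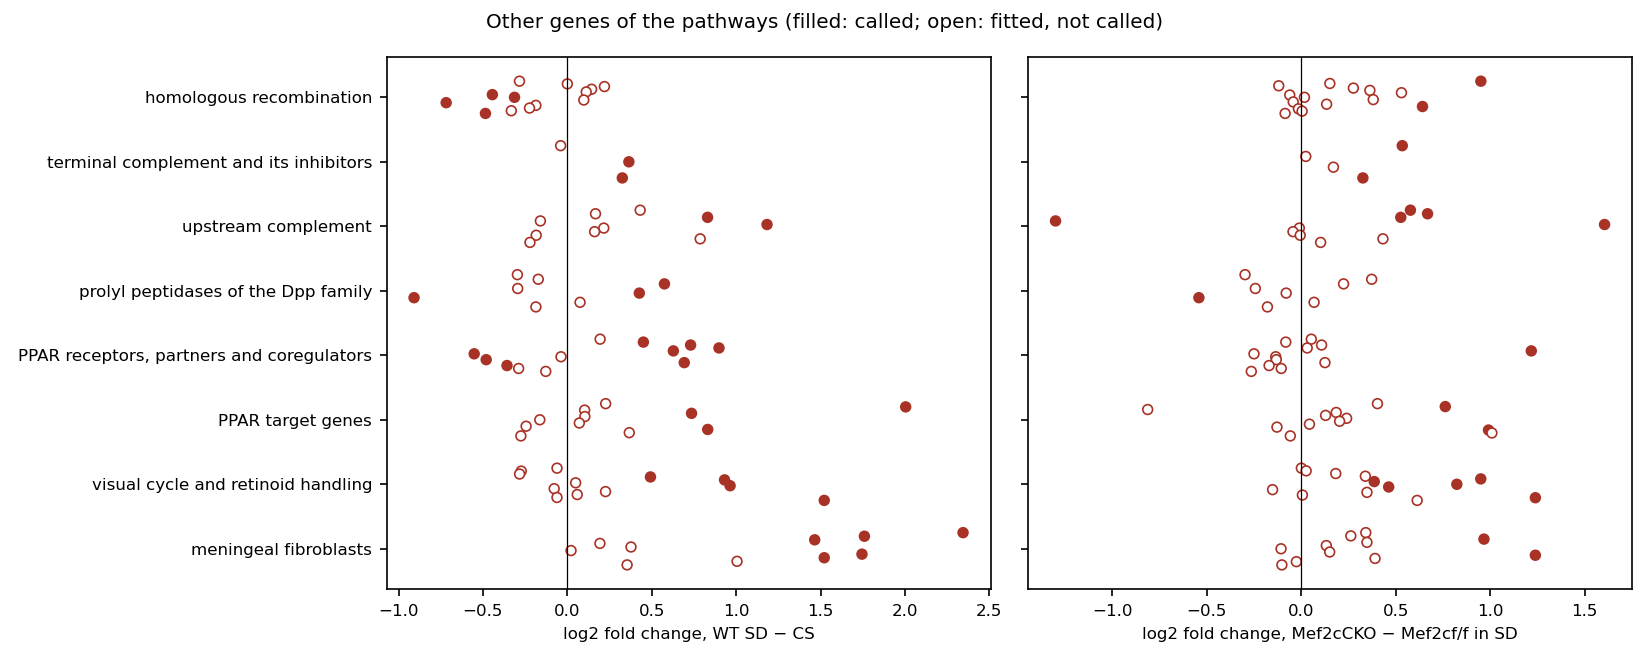
Log2 fold changes (horizontal axes) of the other genes of each pathway list and of the meningeal fibroblast markers in WT SD against CS (left) and in Mef2cCKO against Mef2cf/f SD (right), filled where called and open where fitted but not called. On the left the recombination genes called lie below 0, and the PPAR targets and retinoid genes called lie above 0. The PPAR partners and the Dpp family genes called lie on both sides. Plin4 is farthest out among the pathway lists at 2.00, and Col1a1 among the meningeal fibroblast markers at 2.34.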

How the data were processed

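Frontal cortex RNA of 33 mice was used. The authors used Trimmomatic on the reads, STAR with mm10 for alignment and HTSeq for unique reads per gene, and deposited CPM made with edgeR. The versions, annotation, strand setting and counted feature are not given in the sources used here. Dividing by each library's smallest value above 0 gave whole reads for 100% of 711645 values (within 0.01).

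Median-of-ratios factors came from 11570 genes that reach a CPM of 1 in all libraries, and the CPM were divided by them. Log2(value + 0.5) was fitted in R 4.3.3 with limma 3.58.1 (trend), with the compared groups alone, on genes that reach a CPM of 1 in each replicate of either group, and p-values were adjusted by Benjamini-Hochberg over all of them. Interactions were called on an adjusted p of at most 0.05, without a fold threshold. No source says that replicates are more than separate samples, so p-values measure the spread between these samples. Correlations used 100000 two-sided permutations within groups. edgeR 4.0.16 (quasi-likelihood) and DESeq2 1.42.0, the study's tool, were run on the recovered reads as alternatives, beside other scalings, pseudocounts, filters, trend removal, the replicate block and each library left out. The procedure was tested on simulated data.

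The genes, the pathway and marker lists, the tests and the naming rule were chosen with earlier results of these data known. Named genes are the 5 genes, their chromosomal neighbours, their 3 closest companions, list genes and the next 2 of each ranking. The results of some of these genes are not reported here. The removal of a trend on gene span was added after the data had been seen. Positions come from GENCODE M21, in which 19230 symbols were found.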

Additional observations from a re-analysis of the deposited data

Results flagged for a closer look

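In 3 of the 20 groups of values with 4 to 10 libraries, 1 library lay farther from the others than Dixon's 95% criterion allows, which chance gives in about 1 in 20 groups. Rad51ap2 stood at 16.2 rescaled CPM in WT CS replicate 2, where the next library had 9.11. Rpe65 stood at 5.98 in the same library, with the next at 3.41. This is the library with the steepest GC trend, -0.883 on the log2 scale per 10% GC, and without it the falls from CS to SD were -1.45 for Rad51ap2 and -0.77 for Rpe65. C7 stood at 4.94 in WT RS replicate 1, with the next at 2.59, and that library had the lowest GC trend of WT RS (-0.147). The part of the GC trend in these values was not tested.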

How the results depend on the processing

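Depth limits Rpe65 and C7, which rest on as few as 11 and 28 reads per library, and 3 libraries a group limit every call between genotypes. The number of the 5 genes called lower in Mef2cCKO against Mef2cf/f CS was 1, and became 3 with quantile normalization, DESeq2, the GC and length trend removed, the span trend removed as well, or 4 groups in one fit, 0 without a filter, and 0 to 2 with a library left out (2 without Mef2cf/f CS replicate 4, 0 without any other). Under SD it was 4, and became 1 at a CPM of at least 5 in every library, where 2 genes were tested, 2 with 4 groups in one fit, and 0 to 5 with a library left out. The median fall of the 5 genes from WT CS to SD was -1.33 and became -0.86 with the GC, length and span trend removed. From SD to RS it became 0.0204 at a CPM of at least 5, where Pparg alone was tested. The count of 7 correlated pairs over 33 libraries, which include those that chose the genes, became 4 with the span trend removed and 0 in the 13 libraries that are not WT. Except where named, the cause was not tested.

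Counts over all genes also moved. In WT SD against CS 5826 genes were called, and 2508 with the GC and length trend removed or 1730 with span as well. In WT RS against CS 2232 became 3420 with DESeq2, 385 without a filter, 635 and 188 with these trends removed, and 0 to 3740 with a library left out. Between genotypes in CS 973 became 2095 with DESeq2, 2167 with 4 groups in one fit and 171 to 875 with a library left out. In SD 1927 became 1280 at a CPM of at least 5, 1019 with 4 groups in one fit and 822 to 2447 with a library left out. In Mef2cf/f SD against CS 5 became 119 and 105 with the trends removed and 0 to 590 with a library left out (590 without CS replicate 1).

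The direction turned only in small estimates that no fit called. For SD against CS in Mef2cf/f mice, Pparg went from 0.05 to -0.0771 with the replicate block and -0.0583 with the block and the GC and length trend removed (-0.0771 to 0.207 with a library left out), and Rad51ap2 ran from -0.408 to 0.0458 with a library left out. In Mef2cCKO mice Pparg became -0.12 with the block and -0.11 with the block and the trend removed (-0.12 to 0.10 with a library left out). The interaction of Rad51ap2 became 0.0276 with the span trend removed, 0.0799 with the block and 0.19 with the block and trend. That of C7 became 0.0222 and 0.0041 (-0.18 to 0.12 with a library left out), that of Fap 0.0279 with the block and trend (-0.469 to 0.0491), and that of Rpe65 0.044. The interaction of Pparg became 0.0031 with edgeR and 0.0114 with DESeq2 (-0.18 to 0.10).

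Replicate numbers were not taken to pair the samples, since no label says what they mark and not every pair correlated above 0.1. Across genes, same-numbered Mef2cf/f libraries correlated at 0.0541, 0.165 and 0.294 and Mef2cCKO libraries at 0.0657 and 0.156. In WT mice the 5 pairs of SD and CS ran from -0.301 to 0.648 and the 6 of RS and CS from 0.0495 to 0.660. With the block 0 of the 5 genes were called in either genotype or in the interaction, 287 genes in place of 5826 in WT SD against CS, and 4279 in place of 2232 in WT RS against CS. The block left Rpe65 out of the calls of WT SD against CS and put C7 among those of WT RS against CS. Between genotypes no block could be fitted, because Mef2cCKO and Mef2cf/f mice share fewer than 2 numbers.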
